A study of Mus musculus with 4 samples.

Results

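This account follows 10 genes of the CD40 and BAFF receptor pathway in cultured mouse B cells with and without introduced Ascl2. They are 6 receptors of the tumour necrosis factor (TNF) receptor family (Cd40, Fas, Tnfrsf13b, Tnfrsf13c, Cd27 and Tnfrsf1b) and 4 TNF receptor associated factors, or TRAFs (Traf1, Traf2, Traf3 and Traf6). They were chosen by name, with earlier results of these data known. Each matched a single row, so all 10 were found among the 13792 genes measured. The cells began as naive B cells from C57BL/6 animals, an inbred laboratory strain. They received either the RVKM-Empty retrovirus, which carries no insert, or RVKM-Ascl2, which carries Ascl2, a basic helix-loop-helix transcription factor. Both groups were grown in anti-IgM, a stand-in for antigen, and anti-CD40. There was 1 RNA library per group, so no value has a replicate error, no p-value was computed, and every difference is one between these 2 libraries. The age and sex of the mice, the culture time, the share of cells infected and any selection of infected cells are not stated in the labels. The 2 chromatin samples, from germinal centre B cells, were not used here.

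CD40 is the receptor on B cells for CD40 ligand, the main contact signal from helper T cells, and the anti-CD40 antibody in the culture stands in for that ligand. The BAFF receptor, encoded by Tnfrsf13c, and TACI, encoded by Tnfrsf13b, bind the B cell survival factor BAFF, and TACI also binds APRIL. None of these receptors has enzyme activity in its tail, and they signal by recruiting TRAF proteins. TRAF2 and TRAF3 together with the ubiquitin ligases cIAP1 and cIAP2 keep the kinase NIK low in resting cells, and receptor engagement releases NIK and the noncanonical arm of NF-kB. TRAF6 builds ubiquitin chains that recruit the TAB proteins and the kinase TAK1 to the canonical arm. Because both cultures received anti-CD40, the libraries show these genes in stimulated cells only, and a response to the antibody itself was not measured.

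The deposited values are abundances scaled for depth, without a stated unit name. They summed to 750692 for the empty vector and 763932 for Ascl2, and 11869 and 11999 genes reached a value of 1. The read depth is unknown, and values therefore carry no counting interval. Ascl2 itself was 0.0809 for the empty vector and 29.4 for Ascl2, in the direction of the labels. Both libraries carried the markers of B cells, with Cd79a at 665 and 492, Ms4a1, which encodes CD20, at 265 and 326, and all 12 listed B cell markers present. Their summed values were 8660 for the empty vector and 6865 for Ascl2, of which Cd74 made up 5742 and 4168. Of the 12, 5 had a log2 ratio above 0 and 7 below. Of 18 markers of T and NK cells, 4 had a row, with summed values of 4.79 and 3.70. Of 20 markers of myeloid and dendritic cells, 10 had a row, with summed values of 72.5 and 76.8. These near-equal sums hold moves in both directions. Of the 9 that reached a value of 1 in either library, 6 had a log2 ratio above 0 and 3 below, with a median of 0.21. Fcer1g was 5.71 for the empty vector and 9.83 for Ascl2, and Vcan was 0.094 and 1.40, while Cd68 was 16.2 and 10.8. Their part in other values was not tested. In bulk RNA, a change in the number of expressing cells and a change in RNA per cell cannot be told apart.

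The promoters of the 2 BAFF-binding receptors are shown because Tnfrsf13b had the lowest log2 ratio of the 10 genes while Tnfrsf13c, which shares its ligand, went the other way. The sequences are from RefSeq on GRCm38.p6, the assembly also called mm10, in which 9 of the 10 genes had an entry. Each is the 250 bases before the tabulated start site, read 5′ to 3′ on the strand of the gene. Capitals mark E-boxes, CANNTG, the word bound by basic helix-loop-helix factors such as Ascl2. Both strands were searched, and the E-box words CAGCTG and CAGGTG are cases of CANNTG. The windows are chr11:61126505-61126754 (plus strand) for Tnfrsf13b and chr15:82224381-82224630 (minus strand) for Tnfrsf13c. The Tnfrsf13b window lies inside the annotated gene, which begins further upstream at 61126283, and the Tnfrsf13c window ends where its gene begins.
Tnfrsf13b: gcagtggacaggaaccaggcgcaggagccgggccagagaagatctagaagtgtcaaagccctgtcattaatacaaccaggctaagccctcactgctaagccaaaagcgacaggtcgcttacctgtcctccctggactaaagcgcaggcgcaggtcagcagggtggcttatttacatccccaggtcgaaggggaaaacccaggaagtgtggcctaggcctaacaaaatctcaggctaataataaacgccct
Tnfrsf13c: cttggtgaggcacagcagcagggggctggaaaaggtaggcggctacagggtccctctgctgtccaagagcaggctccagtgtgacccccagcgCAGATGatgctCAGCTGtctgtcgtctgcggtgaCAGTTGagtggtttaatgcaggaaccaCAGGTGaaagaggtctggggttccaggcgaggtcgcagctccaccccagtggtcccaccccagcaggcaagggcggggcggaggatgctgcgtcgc
The Tnfrsf13c window held 4 E-boxes, among them 1 CAGCTG and 1 CAGGTG, while the Tnfrsf13b window held none. The Cd27 window held 3, at a log2 ratio of 0.14, and those of Traf1 and Traf6 held 2 each, at −0.12 and −0.01. Those of Fas, Traf2 and Tnfrsf1b held 1 each, at 0.06, 0.11 and 0.17, and that of Traf3 held none, at 0.15. Any link between these words and the ratios was not tested. Of the 9 windows, 7 held an E-box of some kind, against 66.2% of all 32851 promoters and 57.1% of those of genes kept for comparison. CAGCTG stood in 1 of the 9 and in 13.0% of all promoters, and CAGGTG in 2 of the 9, those of Tnfrsf13c and Tnfrsf1b, and in 17.2%. A match is a word in a window and not a measured binding site, and a window without one says nothing of the factor.

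No receptor or TRAF gene differed by 1.5-fold between the libraries. To form a log2 ratio, 1 was added to each value and the Ascl2 library was divided by the empty-vector library. The comparison covers the 12283 genes that reached a value of 1 in either library. All 10 genes passed that filter in both libraries. Past 2-fold lay 0 of the 10, where 2.25% of all compared genes did, and past 1.5-fold lay 0 of the 10, where 9.32% did. For 10 genes a count of 0 is near these background shares and is not read as a result about them. Past 1.2-fold, a limit chosen after the values were seen, lay 1 of the 10, Tnfrsf13b, against 39.4% in either direction and 20.9% in the lower direction alone. Of the 10 log2 ratios, 7 were above 0 and 3 below, with a median of 0.12, while the median over all compared genes was −0.01. Of all compared genes, 5945 lay above 0 and 6338 below. The mean over the 10 was 0.032, nearer to 0 because of Tnfrsf13b. The median size of the log2 ratio, without its sign, was 0.13 over the 10 genes and 0.21 over all compared genes.

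**Figure D1:**
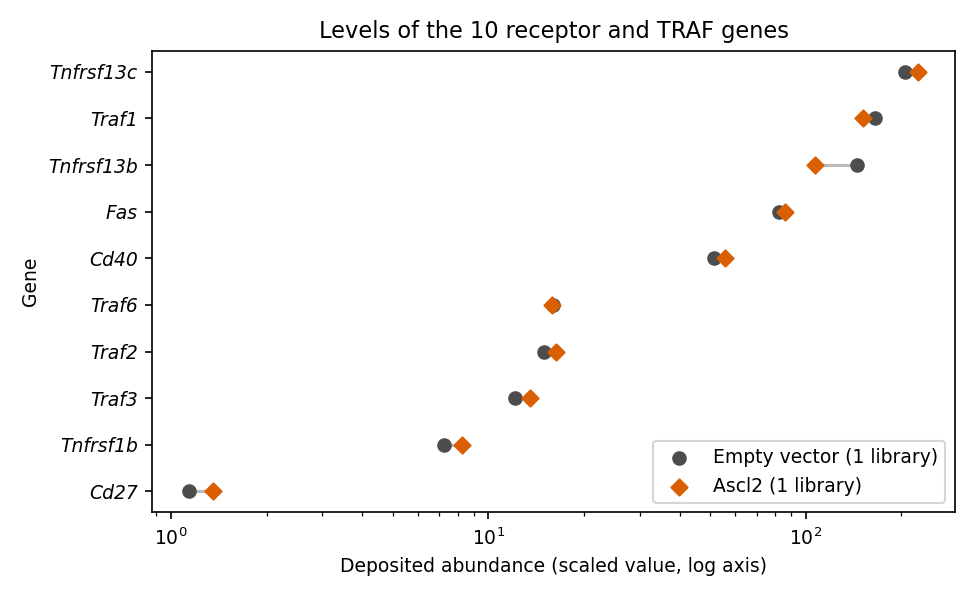
Deposited abundance (log axis) of each of the 10 genes in the empty-vector library (circles) and the Ascl2 library (diamonds), 1 library each, with genes ordered by the empty-vector value. The symbols of a gene lie close together throughout, and the widest gap among the highly expressed genes is that of Tnfrsf13b, from 145 to 107.

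The levels spanned a wide range that was nearly the same in both libraries. With the empty vector the order from high to low was Tnfrsf13c, Traf1, Tnfrsf13b, Fas, Cd40, Traf6, Traf2, Traf3, Tnfrsf1b and Cd27. In the Ascl2 library the only exchange was between Traf2 and Traf6, whose values were close in both. The extremes were 205 for Tnfrsf13c and 1.14 for Cd27 with the empty vector, and 226 and 1.36 for the same genes with Ascl2. The sources do not state whether values are per gene length, so the order is one of deposited values, and with 1 library per group it cannot be said which neighbours differ beyond replicate spread.

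Among the receptors for T cell help and death signals, Cd40 and Fas differed little between the libraries. Cd40 (ENSMUSG00000017652, chromosome 2, 165055614 to 165071654) was 51.2 for the empty vector and 55.8 for Ascl2, a log2 ratio of 0.12. This put the receptor targeted by the culture antibody at percentile 85.7 and 87.5 of all genes in level. Fas (ENSMUSG00000024778, chromosome 19, 34290647 to 34327775), the death receptor that activated and germinal centre B cells carry, had values of 82.2 and 85.7, a log2 ratio of 0.06. A larger difference than theirs was found in 68.2% of compared genes for Cd40 and in 83.9% for Fas.

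The 2 BAFF-binding receptors of the set lay on opposite sides of 0, under each of the 7 settings tried. Tnfrsf13c (ENSMUSG00000068105, chromosome 15, 82221742 to 82224380), the BAFF receptor that mature B cells need to survive, had values of 205 and 226 in these libraries, the second with Ascl2. It was the highest of the 10 genes in both libraries, at percentile 97.0 and 97.3 of all genes, and its log2 ratio was 0.14. Tnfrsf13b (ENSMUSG00000010142, chromosome 11, 61126283 to 61153170), which encodes TACI, a receptor known both for restraining B cell numbers and for supporting switched antibody, was 145 and 107. Its log2 ratio of −0.44 was the largest difference among the 10 genes, and the Ascl2 value was 0.735 of the empty-vector value. That ratio lay at percentile 8.85 of all compared genes, and 17.2% of genes had a larger difference in either direction, so it stands well within the range of the 2 libraries. Set against each other within a library, Tnfrsf13b over Tnfrsf13c was 0.711 for the empty vector and 0.475 for Ascl2, both with 1 added to each value. The second ratio was 0.668 of the first. With no addition to the values it was 0.666, and in that form the comparison does not depend on how the libraries are scaled. Tnfrsf13b shares 1390 bases of its annotated span with its neighbour Usp22, which was 19.9 and 21.5, and whether reads were counted by strand is not stated.

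The remaining receptors had low values. Tnfrsf1b (ENSMUSG00000028599, chromosome 4, 145212368 to 145246870), which encodes TNF receptor 2, a TRAF2-binding receptor for TNF, was 7.24 for the empty vector and 8.24 for Ascl2. Its log2 ratio of 0.17 was the highest of the 10. Cd27 (ENSMUSG00000030336, chromosome 6, 125232620 to 125237136), the receptor for CD70 and a known marker of human memory B cells and of T cells, was 1.14 and 1.36, at percentile 15.5 and 17.0 of all genes in level. Its log2 ratio was 0.14 and is the one most open to the added constant, ranging from 0.05 with a pseudocount of 5 to 0.24 with 0.1. The 4 T and NK cell markers with a row were low too and did not move together. Cd28 was 0.734 and 0.751 and Lat was 1.36 and 1.41, while Zap70 was 0.805 and 0.182 and Prf1 was 1.89 and 1.36. Their part in the Cd27 value was not tested. The whole span of Cd27 is overlapped by an annotated long noncoding RNA, E130112N10Rik, and reads of the 2 cannot be told apart unless strand was used.

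**Figure D2:**
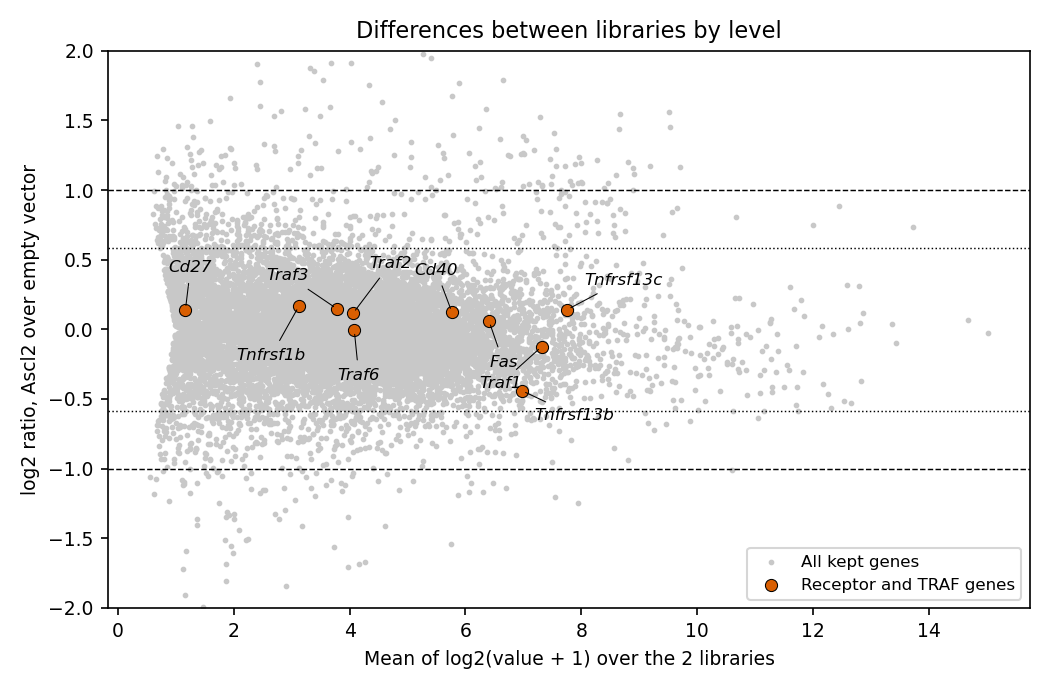
Log2 ratio of Ascl2 over empty vector (vertical axis) against mean log2(value + 1) of the 2 libraries (horizontal axis) for all 12283 compared genes (grey) and the 10 receptor and TRAF genes (orange), with 2-fold limits dashed and 1.5-fold limits dotted. All 10 lie between the dotted lines, with Tnfrsf13b lowest at −0.44, and 28 genes lie beyond the plotted range.

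Of the TRAF genes, Traf1 was by far the highest in value. Traf1 (ENSMUSG00000026875, chromosome 2, 34941750 to 34961812), a TRAF without a RING domain that is itself a known target of NF-kB, was 165 for the empty vector and 152 for Ascl2. Its log2 ratio was −0.12, the second lowest of the 10. Traf2 (ENSMUSG00000026942, chromosome 2, 25517982 to 25546940), which brings cIAP1 and cIAP2 to receptors, was 15.0 and 16.3, a log2 ratio of 0.11. Traf1 over Traf2, with 1 added to each value, was 10.4 for the empty vector and 8.80 for Ascl2, so the second was 0.848 of the first.

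Traf3 and Traf6 also kept close to their empty-vector values. Traf3 (ENSMUSG00000021277, chromosome 12, 111166321 to 111267155), the adaptor that holds NIK low and is degraded when CD40 or the BAFF receptor is engaged, was 12.1 for the empty vector and 13.5 for Ascl2. Its log2 ratio was 0.15, and Traf3 over Traf2 was 0.818 and 0.836, almost the same in both libraries. Traf6 (ENSMUSG00000027164, chromosome 2, 101678420 to 101701668), which CD40 and the Toll-like receptors use, was 16.0 and 15.9. Its log2 ratio of −0.01 was the smallest difference of the 10, with 98.1% of compared genes differing more. Cd40 over Traf6 was 3.08 and 3.36, a factor of 1.09 between the libraries. An annotated long noncoding RNA overlaps each of Traf1 and Traf3, and a pseudogene overlaps Traf2, and none of these had a row.

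**Figure D3:**
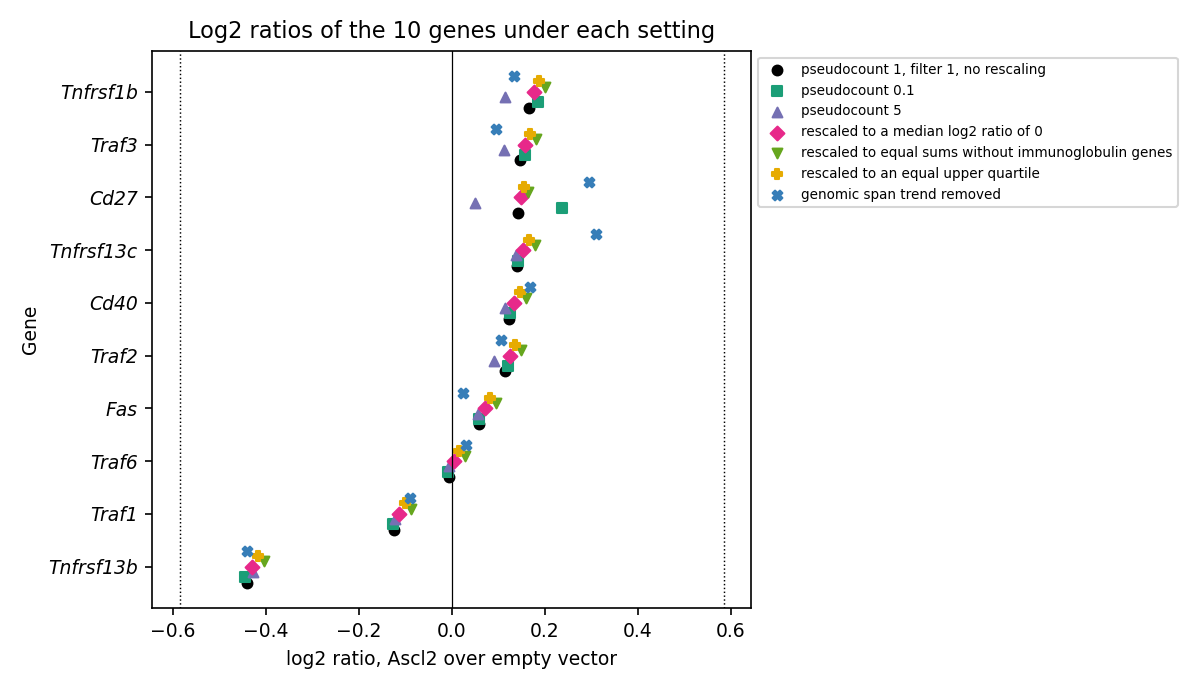
Log2 ratio of Ascl2 over empty vector for each of the 10 genes under 7 settings of the calculation (symbols), with dotted lines at 1.5-fold. Tnfrsf13b stays between −0.44 and −0.40 and Traf1 below 0, Traf6 lies on both sides of 0, and the other 7 genes lie above 0.

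Beyond these 10, 139 genes of the pathway were listed by role, of which 125 had a row and 116 passed the filter. Past 2-fold lay 4 of the 116, all higher with Ascl2, where 1.53% of compared genes were higher by that much. These were Tab2, Cd86, Cr2 and Il10. The median log2 ratio over the 116 was −0.04, with 53 above 0 and 63 below. The lists were written with earlier results of these data known, so their counts describe them only, and some genes stand in more than 1 list.

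The ligands of these and related receptors were mostly lower in value, and which cells in the bulk RNA made them was not measured. Of 17 listed, 12 had a row and 6 passed the filter, 5 with a log2 ratio below 0 and 1 above, and none past 1.5-fold, with a median of −0.25. Over all compared genes, 6338 of 12283 were below 0. Running medians of the log2 ratio over genes of like genomic span were −0.17 near 2.64 kb and 0.05 near 101 kb. This trend was not removed from any pathway list, and its part in these values was not tested. Ltb, which encodes lymphotoxin beta, through which B cells signal to stromal tissue, was 99.5 and 75.6. Cd70, the ligand of CD27, was 4.12 and 2.70, a log2 ratio of −0.47. With a pseudocount of 0.1 its log2 ratio was −0.59, and 1 of the 6 ligands, Cd70, was then past 1.5-fold. Tnf was 7.66 and 6.31, while Lta, which encodes lymphotoxin alpha, was 13.9 and 15.5. With a pseudocount of 5 the median of the ligands was −0.18.

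Other receptors of the family and other TRAF-binding genes showed no member past 1.5-fold. Of 9 receptors that passed the filter, 3 were above 0 and 6 below, with a median of −0.08. Tnfrsf8, which encodes CD30, was 27.6 and 23.5, and Tnfrsf14, which encodes HVEM, was 15.4 and 18.1. Of 13 other TRAF and TRAF-binding genes, 4 were above 0 and 9 below, with a median of −0.15. Traf4 was 36.4 for the empty vector and 26.1 for Ascl2, a log2 ratio of −0.46, and Traf5, which also binds CD40, was 19.1 and 15.2. Tank, a TRAF-binding scaffold, went the other way at 63.6 and 72.5. Traf4 and Traf5 were thus lower in value where Traf2 and Traf3 were slightly higher, but all 4 lay within 1.5-fold. Traf7, at 88.3 and 77.0, and Traf1 were lower too, and Traf6 was nearly level, so the TRAF genes did not divide by list.

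**Figure D4:**
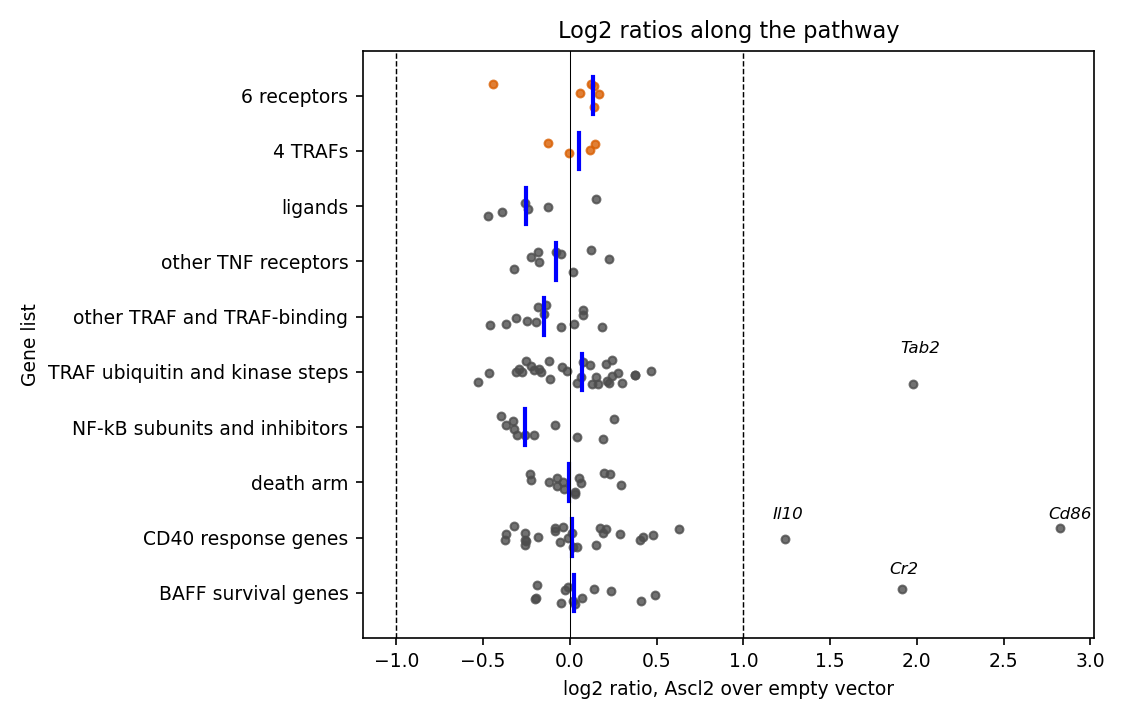
Log2 ratio of Ascl2 over empty vector for the 6 receptors and 4 TRAFs (orange) and for the genes of each pathway list that passed the filter (grey, without the 10 genes themselves), with blue bars at list medians and dashed lines at 2-fold. Points are spread vertically for legibility. The receptor and TRAF genes cluster near 0, and the 4 genes past 2-fold are named.

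The ubiquitin and kinase steps that TRAFs recruit held 1 gene of 32 past 2-fold, where 2.25% of all compared genes were. Tab2, which encodes the adaptor that reads ubiquitin chains built by TRAF6 and brings in TAK1, was 18.4 for the empty vector and 75.6 for Ascl2, a log2 ratio of 1.98. Its partners differed far less. Map3k7, which encodes TAK1, was 24.6 and 26.9, Tab1 was 6.35 and 5.78, and Tab3 was 2.86 and 3.56. Of the 32 genes in the list, 18 were above 0 and 14 below, and the other 31 lay within 1.5-fold. Birc2, which encodes cIAP1, was 103 and 125, and Birc3, which encodes cIAP2, was 108 and 111. Map3k14, which encodes NIK, was 10.6 and 9.21, and Chuk, which encodes the kinase IKK alpha that NIK activates, was 21.6 and 30.3, a log2 ratio of 0.47. Otulin, a deubiquitinase of linear chains, was 172 and 124, and Map4k1, a kinase that restrains antigen receptor signalling, was 273 and 189, a log2 ratio of −0.53.

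NF-kB subunits and inhibitors were lower in value in 8 of 11 genes, with a median of −0.26 and none past 1.5-fold. Over all compared genes, 6338 of 12283 were below 0. The 3 genes of the list above 0 included Nfkbie, at 48.3 for the empty vector and 55.2 for Ascl2. Nfkb2, the subunit processed in the noncanonical arm, was 187 for the empty vector and 156 for Ascl2, and its partner Relb was 29.7 and 23.6. Nfkb1 was 244 and 211. In the death arm below Fas, 7 of the 14 listed genes were above 0 and 7 below, with none past 1.5-fold. Casp8, the caspase that Fas activates, was 55.9 and 54.4, and Cflar, which encodes its inhibitor c-FLIP, was 72.7 and 89.5.

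Genes known to respond to CD40 were divided. Of 27 that passed the filter, 14 were above 0 and 13 below, with a median of 0.01. Past 2-fold lay 2 of them, where 2.25% of all compared genes did. Cd86, a costimulatory ligand, was 6.29 for the empty vector and 50.8 for Ascl2, a log2 ratio of 2.83. Il10, an anti-inflammatory cytokine, was 4.63 and 12.3, a log2 ratio of 1.24 that was 0.85, short of 2-fold, with a pseudocount of 5. Slamf1, a signalling receptor of activated lymphocytes, was 10.6 and 16.9, past 1.5-fold with a log2 ratio of 0.63, though not with a pseudocount of 5. Cd80, the sister ligand of Cd86, was 19.3 and 26.1, Icam1 was 41.7 and 39.2, and Cd83 was 329 and 331. Fcer2a, which encodes CD23, had the highest value of the list at 1041 and 1053.

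Genes tied to BAFF signals and survival had 1 of 14 past 2-fold, where 2.25% of all compared genes were, and a median of 0.02. Cr2, which encodes the complement receptor CD21, was 7.35 for the empty vector and 30.5 for Ascl2, a log2 ratio of 1.91. The survival genes Bcl2 and Mcl1 were 11.0 and 13.2, and 165 and 159, and Bcl2l1, which encodes Bcl-xL, was 43.2 and 42.9.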

How the data were processed

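RNA of 2 libraries, 1 infected with RVKM-Empty and 1 with RVKM-Ascl2, was analysed, with groups taken from the sample titles. The authors deposited a signal per gene, a scaled abundance in decimals. Its unit name, quantifier and strandedness are not stated in the labels. Per the submitters' processing notes, the build was mm10, and Bowtie2, MACS2, Picard and Trim Galore were used, without roles or versions. The series also holds the 2 chromatin samples, so which of these tools served the RNA values cannot be said. The files list no gene at 0.

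Members were matched on the symbol column. Members and pathway lists were chosen with earlier results of these data known. The log2 ratio used a pseudocount of 1, and genes reaching 1 in either library were kept (12283 of 13792). The values are not counts, so no count model was used, and without replicates folds were read against all kept genes. Named from each list were genes past 2-fold, up to 5 with the largest ratios and up to 4 with the highest values. Tab1, Tab3, Map3k7, Map3k14, Icam1, Bcl2l1, Usp22 and the neighbours of Tab2 were chosen after their values were seen. A single gene of the lists is not reported here by name. Coordinates and promoters are RefSeq's on GRCm38.p6, matched by symbol. The log2 ratio, filter and fold limits were tested on simulated data with planted folds. The simulated noise was set and not taken from these libraries, so that test says nothing of false calls here. Alternatives were other pseudocounts, filters and 3 rescalings, and, added after the data were seen, a 1.2-fold limit and removal of a running median over 501 genes ordered by genomic span. Python 3.11.15, pandas 2.3.3, numpy 2.4.6 and matplotlib 3.10.9 were used.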

Additional observations from a re-analysis of the deposited data

How the results depend on the processing

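The count of receptor and TRAF genes past 2-fold was 0 under pseudocounts of 0.1 and 5, 3 rescalings, no filter, a filter of 5 and removal of the genomic span trend. The count past 1.5-fold was 0 under the same pseudocounts, rescalings and trend removal. With a limit of 1.2-fold, added after the data were seen, it was 1. The median log2 ratio of 0.12 ranged from 0.07 with a pseudocount of 5 to 0.15 with libraries rescaled to equal sums without immunoglobulin genes, and the mean in its place was 0.032. Of the 10 genes, Traf6 alone changed sign, from −0.01 to 0.03. Removing the span trend moved Tnfrsf13c from 0.14 to 0.31 and Cd27 from 0.14 to 0.30, and the cause was not tested. The rescalings multiplied the Ascl2 values by at most 1.03. No paired analysis was possible because there is 1 library per group. Read depth is unknown, which limits the low genes Cd27 and Tnfrsf1b most.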

Other observations

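Tab2 (chromosome 10, 7905648 to 7956255, GRCm38.p6) was looked at beside its neighbours, a comparison chosen after its value was seen. The 3 compared genes before it were Ginm1, at 27.0 without and 24.1 with Ascl2, Ppil4, at 21.6 and 23.9, and Zc3h12d, an RNA-degrading regulator in lymphocytes, at 40.4 and 40.7. The 3 after it were Stxbp5, at 9.60 and 10.7, Rab32, at 1.52 and 1.46, and Shprh, at 7.98 and 8.74. Their log2 ratios lay between −0.16 and 0.15, against 1.98 for Tab2, so among these compared genes the difference was that of Tab2 alone. The 3 after it are not close by, since they begin at 9755547, 10545039 and 11149272. The stretch between Tab2 and the first of them was not compared. In the 2 libraries, 7 genes carry values with more than 6 significant digits, and neither Tab2 nor any of the 10 receptor and TRAF genes is among them. All 7 were past 2-fold higher with Ascl2, at log2 ratios from 1.45 to 2.54, where 1.53% of compared genes were higher by 2-fold. Why these values carry more digits was not tested.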
